A study of Mus musculus with 12 samples.

Results

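The expression programmes of white adipose tissue (WAT) and skeletal muscle were compared over the whole array. The members were chosen by title: the 4 arrays titled as white adipose and the 4 titled as muscle, 8 of the 12 arrays of the series, with the injection as a covariate. The other 4 arrays are of liver and are given only as a level beside a result. All mice were females of the C57bl/6 background, 12 weeks old, with GHSR, the receptor of acylated ghrelin, knocked out, so no group carries the receptor and no wild type mouse enters the comparison. The tissues were gonadal WAT and the M. vastus lateralis of the thigh, taken 6 h after mice received either saline or UAG intraperitoneally. UAG is unacylated ghrelin, the peptide without the acyl chain that GHSR requires, and its dose was 20 nmol/kg. Each of the 4 groups (WAT saline, WAT UAG, muscle saline and muscle UAG) has 2 arrays, and the labels tie no array to a mouse. The study's methods give n = 2 for the saline and UAG treated mice, so WAT and muscle arrays may come from the same animals. The main fit took the 8 arrays as independent, and the p-values below reflect just how far these 8 samples spread.

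White fat stores triglyceride in a lipid droplet, releases fatty acids from it by lipolysis, and secretes hormones such as leptin and adiponectin. Skeletal muscle fibres are filled with sarcomeres, in which thick filaments of myosin pull on thin filaments of actin once calcium leaves the sarcoplasmic reticulum, and creatine phosphate, glycogen and mitochondrial oxidation supply the ATP. Many enzymes and contractile proteins exist in a muscle form and a broader form that are the products of separate genes.

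Levels are array intensities, obtained from the log2 values that were deposited. Probe sets are the array's units, each made of several short oligonucleotides against a transcript, and a gene is read by its brightest probe set over the 8 arrays. The values of a tissue are given in the order saline 1, saline 2, UAG 1 and UAG 2. A difference is WAT minus muscle on the log2 scale with its standard error (SE) from limma, a linear model fitted to all 45037 probe sets, and a gene was called at a Benjamini-Hochberg adjusted p below 0.05. A fold is the ratio of the geometric means of the tissues over 4 arrays each. The study's methods name an intensity threshold of 30, and where any array of the dimmer tissue lay under it, that array was set to 30 and the fold is a bound, written as at least. Differences and their tests are of the fitted values, without that floor, unless it is named.

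The tissue labels were checked against marker genes. All 10 muscle fibre markers were higher in muscle by at least 8-fold, and 5 of the 7 adipocyte markers measured were higher in WAT, but the muscle arrays also held adipocyte transcripts at high levels. Ckm, the creatine kinase of muscle fibres, read 613, 35.1, 24.3 and 40.7 in WAT and 14587, 14385, 13213 and 14133 in muscle, at least 197-fold higher in muscle (difference -7.70, SE 0.73, adjusted p = 2.29e-05). Lep, which encodes leptin, read 1495, 392, 2762 and 3283 in WAT and 176, 172, 366 and 626 in muscle, 5.26-fold higher in WAT (SE 0.34 on the log2 scale, adjusted p = 0.000365). The tissues did not overlap for Ckm, and for Lep the lowest WAT array, saline 2, lay below the highest muscle array, UAG 2.

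Adipoq, which encodes adiponectin and is made by adipocytes, read 13419, 12280.4, 12761 and 14161 in WAT and 7674, 11936, 9114 and 10379.6 in muscle. The difference was 0.45 (SE 0.18) and did not pass the test (adjusted p = 0.0888), although every muscle array lay below every WAT array. Its adjusted p ran from 0.0126 to 0.598 over the alternative settings, and was 0.0202 without muscle saline 2. The muscle geometric mean was 73.4% of that in WAT for Adipoq, 89.02% for Fabp4 (the fatty acid binding protein of adipocytes), 40.4% for Retn (resistin), 29.9% for Pparg, 28.1% for Lipe (hormone-sensitive lipase), 22.3% for Cidec and 18.997% for Lep. Fabp4 read 16981 to 17913 in WAT and 13399 to 18188 in muscle. These values come near the ceiling of the scale, 18498, which limits what the Fabp4 ratio can show. The liver arrays, where adipocytes are sparse, read at most 17.4 for Adipoq, and its level in muscle was at least 322-fold that in liver. Within muscle, 6 of the 7 adipocyte markers were highest on saline 2. In bulk tissue, fewer cells of a type and less RNA per cell cannot be told apart, and how much of the fat programme on the muscle arrays came from fat between the fibres was not tested.

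Markers of other cells moved with single arrays. Within WAT, all 10 muscle fibre markers and 8 of the 9 brown adipocyte markers were highest on saline 1, where Ckm read 613 and Ucp1, the uncoupling protein of brown fat, read 6772 against 503 to 1677 on the other 3. Ucp1 was not low in muscle either, at 3713, 3348, 2558 and 1043, and did not pass the test (difference -0.76, SE 0.61, adjusted p = 0.405). On WAT saline 2, 9 of 10 smooth muscle markers and 7 of 10 markers of the female reproductive tract were highest, with Actg2, an actin of visceral smooth muscle, at 4963 against 286 to 474. On muscle saline 2, epithelial keratin Krt18 read 1056 against 28.3 to 252 on the other muscle arrays. By count, the red blood cell list (1 of 4 measured members called, higher in muscle) and the hepatocyte list (1 of 10, Cyp2e1, higher in WAT) had the fewest calls. The lists differ in length, so this is no ranking by share, and 15.8% of all genes were higher in muscle and 22.2% in WAT. The hepatocyte count was 0 or 2 whenever any array was left out.

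**Figure D1:**
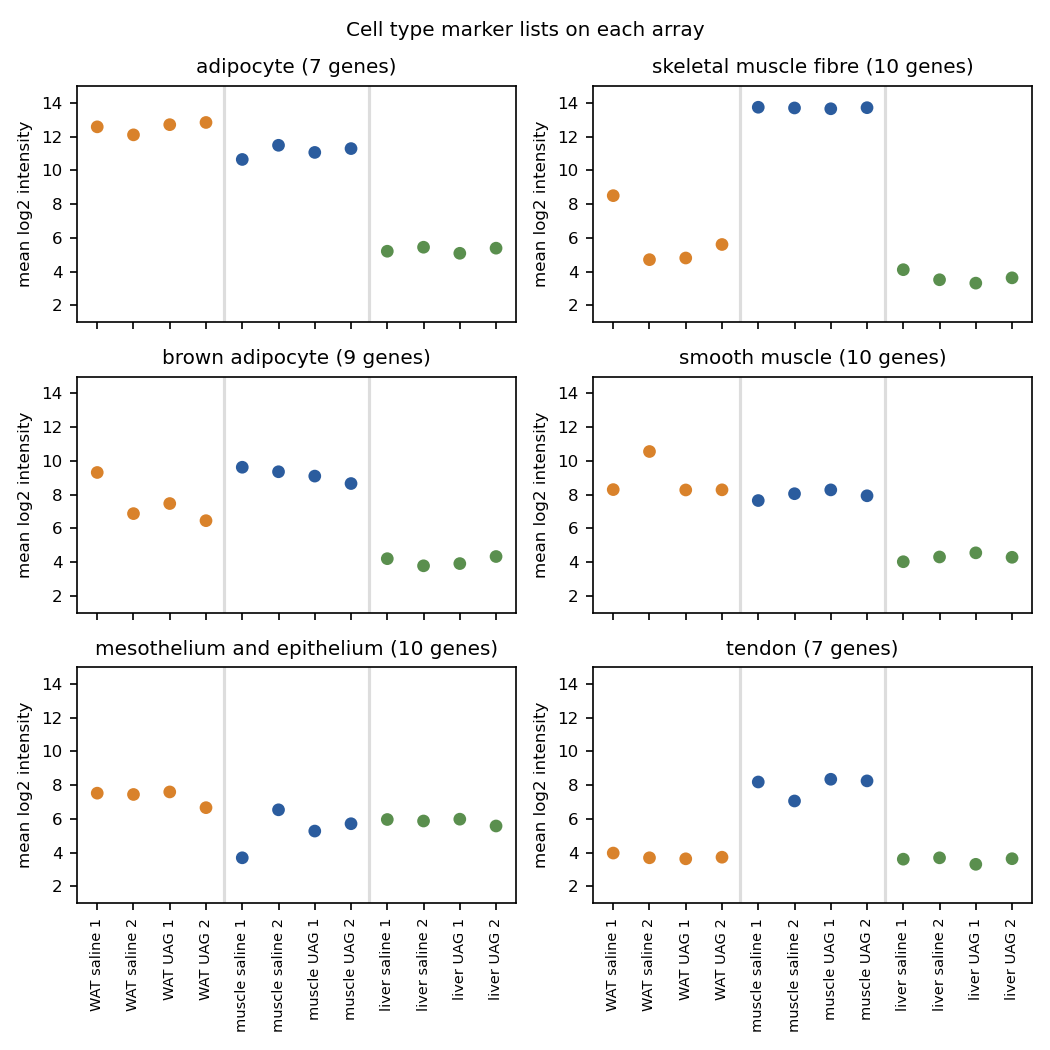
Mean log2 intensity (vertical axis) of 6 marker lists on each of the 12 arrays (horizontal axis), WAT in orange, muscle in blue and liver in green, 1 point per array. Adipocyte markers lie far above liver in muscle, the muscle fibre and brown adipocyte lists peak in WAT on saline 1, and the smooth muscle list peaks on WAT saline 2.

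Ghsr itself, the gene knocked out, read 4.78, 14.3, 3.95 and 3.80 in WAT and 26.2, 6.604, 14.63 and 20.4 in muscle, under 30 on all 8 arrays, and was not called (adjusted p = 0.0899), though it was without WAT saline 2 or without muscle saline 2. Pearson correlations of the log2 values were 0.951 to 0.962 between WAT arrays, 0.938 to 0.951 between muscle arrays and 0.860 to 0.909 across tissues. The control ratio of 3′ to 5′ signal for β-actin, a measure of RNA length, was 1.70 to 1.96 in WAT and 0.898 to 1.13 in muscle, and that for Gapdh was 0.700 to 0.745 and 0.732 to 0.779. This ratio differed with tissue, and its part in the differences below was not tested.

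Muscle stood apart through a large set of very high transcripts, WAT through many moderate ones. Of 18193 named genes, 4044 (22.2%) were higher in WAT and 2879 (15.8%) higher in muscle. The balance turned with size. Fitted differences of at least 8-fold were called for 36 genes (0.198%) in WAT and 334 (1.84%) in muscle. Of those 8-fold genes, 21 of 36 read under 30 on every muscle array and 142 of 334 on every WAT array. The median difference over all genes was 0.08. The muscle arrays also held adipocyte transcripts, with Adipoq at 73.4% of its WAT level, and the scale has a ceiling. The part of either in this imbalance was not tested.

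Over probe sets, 13281 of 45037 (29.5%) were called, 7365 higher in WAT and 5916 in muscle. This split depends on the scale. When the arrays were centred on ribosomal protein and proteasome genes, 13347 were higher in WAT and 3380 in muscle, and the median over all genes moved up by 0.37 to 0.45. Of the genes that set this centring, the proteasome subunits themselves leaned to muscle (median -0.55), unlike the ribosomal proteins (median 0.18). Probe sets called by at least 8-fold were 49 in WAT and 540 in muscle, or 118 and 438 after that centring, 20 and 400 with values under 30 set to 30 and 84 and 601 without muscle saline 2. The 540 probe sets called at least 8-fold higher in muscle held 7.84 to 9.57% of the summed intensity of a muscle array, against 0.221 to 0.345% of a WAT array. The 49 sets called 8-fold higher in WAT held just 0.148 to 0.260% of a WAT array.

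**Figure D2:**
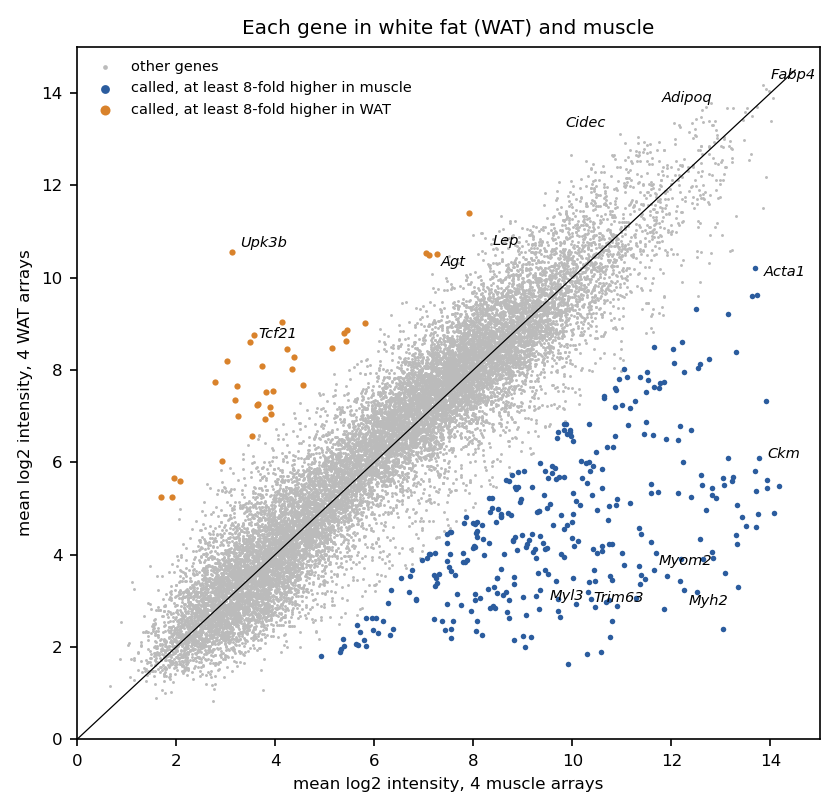
Each point is a gene, placed by its mean log2 intensity on the 4 muscle arrays (horizontal) and the 4 WAT arrays (vertical), with the line of equal level. The 334 genes called at least 8-fold higher in muscle (blue) reach the brightest levels of the array, while the 36 such genes of WAT (orange) lie mostly at a middle level, and Adipoq and Fabp4 sit near the line. Fabp4 lies close to the ceiling of the scale, which limits what its place can show.

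The 15 genes with the largest fitted differences toward WAT include 12 that lay under 30 on every muscle array, so their order was not measured and none is given. Upk3b, an uroplakin known from mesothelium, the lining of the body cavity, read 1139.7, 1237, 2615 and 1427 in WAT and 18.4, 5.67, 4.42 and 12.4 in muscle, at least 50.5-fold higher in WAT (fitted difference 7.45, SE 0.43, adjusted p = 6.14e-07). Mesothelial Msln was at least 6.71-fold higher and Wt1, a transcription factor of mesothelium, at least 7.14-fold higher. The 15 also held Upk1b (at least 14.4-fold), Rspo1, an agonist of Wnt signalling (at least 9.81-fold), the fat depot and mesenchymal transcription factor Tcf21 (at least 12.9-fold), Bnc1 (at least 4.28-fold), the complement component C6 (at least 9.08-fold), the protease inhibitor Slpi (at least 11.7-fold), Myrf (at least 5.41-fold), Cyp2s1 (at least 6.16-fold) and the carboxypeptidase Cpz (at least 1.67-fold). Slc6a13 (at least 7.71-fold) and Serpinb6b (at least 10.2-fold) had a muscle array above 30. Pcp4 read 278, 5472, 208 and 247 in WAT and 4.56, 18.5, 40.6 and 27.3 in muscle (at least 16.3-fold), and its highest array was WAT saline 2, the one with the highest smooth muscle markers.

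Of the 15 genes with the largest fitted differences toward muscle, 4 lay under 30 on every WAT array and 11 on some, so here too no order is given. Ckmt2, the mitochondrial creatine kinase of the sarcomere, read 7884, 8452, 9065 and 8409 in muscle and 42.9, 4.09, 2.18 and 1.96 in WAT, at least 257-fold higher in muscle (SE 0.68 on the log2 scale, adjusted p = 1.27e-06). The WAT level of Ckmt2 was under 30 except on saline 1, the array that was highest for all 10 fibre markers, and without that array the gene stayed called. Of the genes of the sarcomere, the myosin heavy chains Myh2 (at least 310.0-fold), Myh1 (at least 257-fold) and Myh4 (at least 236-fold), fast troponin I Tnni2 (at least 316-fold), titin Ttn (at least 267-fold) and nebulin Neb (at least 214-fold) were among the 15, with the M-band protein Myom2, the thin filament cap Tmod4 and the Z-disc proteins Myot and Ldb3, whose folds follow with their lists. The others were the muscle AMP deaminase Ampd1, the oxygen store myoglobin, Mb (at least 247-fold), Smpx (at least 164-fold) and Trim63, a ubiquitin ligase of muscle atrophy.

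**Figure D3:**
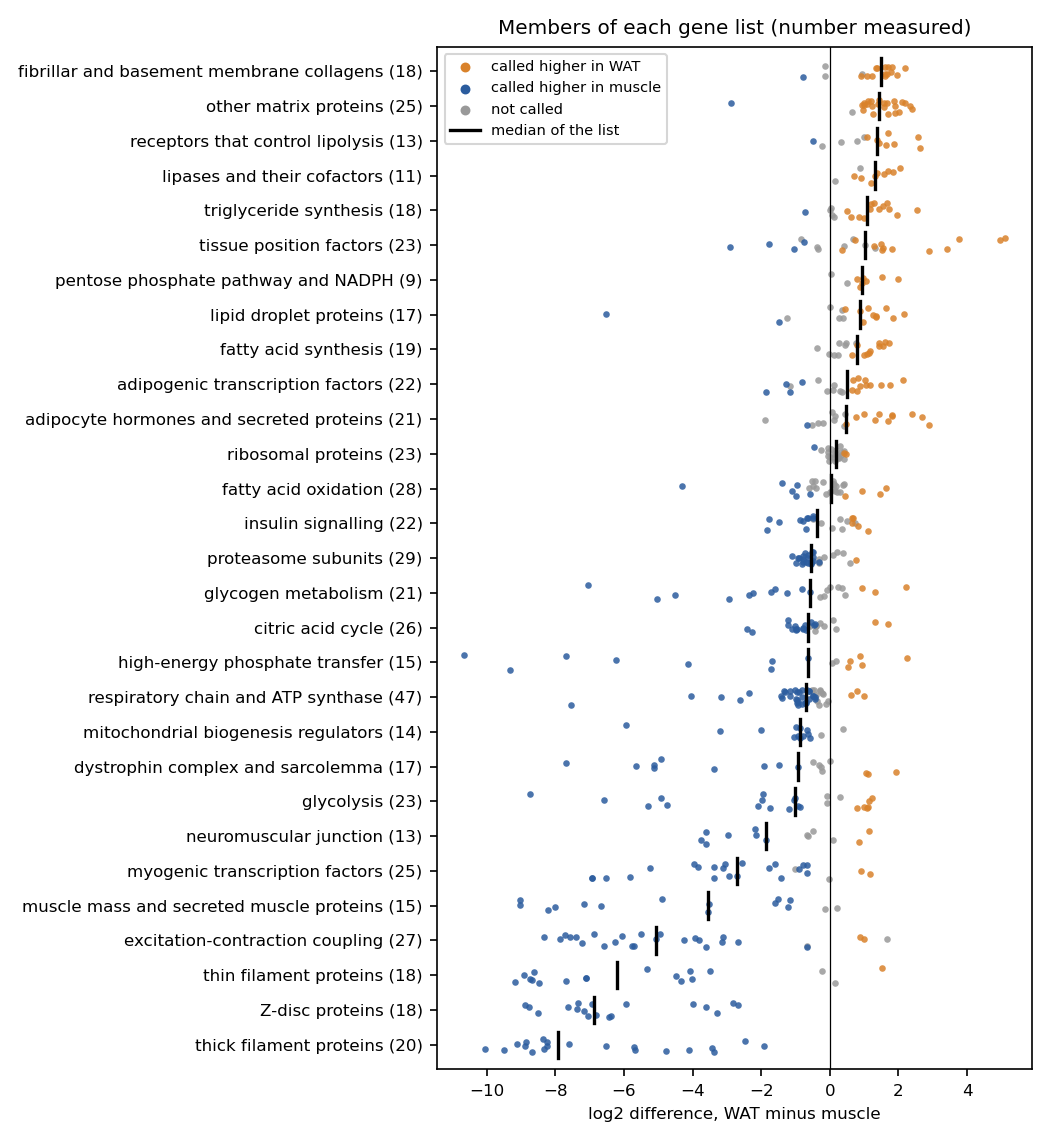
Log2 difference, WAT minus muscle (horizontal axis), of every measured member of 29 gene lists, ordered by their median (black bar), orange where called higher in WAT, blue where called higher in muscle and grey where not called. Contractile lists reach medians of -7.91 to -5.07, while no list of fat cell function has a median above 1.39.

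Gene lists are described by their fitted differences. Where a median moved by over 1.5 times with values under 30 set to 30, the median with that floor follows it. For some lists that moved less it is given too. The lists are given by their counts, to be read beside the 22.2% and 15.8% of all genes, and by their median, beside 0.08 over all genes. The hormones of the fat cell were higher in WAT by modest factors. Of 21 adipocyte hormones and secreted proteins measured, 11 were higher in WAT and 1 in muscle, with a median difference of 0.48. Agt, the precursor of angiotensin, read 1040.5, 583, 1239.6 and 1781 in WAT and 155, 127, 164 and 134 in muscle (7.46-fold, SE 0.23, adjusted p = 6.89e-06), and Rbp4, the plasma carrier of retinol, read 6862, 5363, 6763 and 7022 and 658, 1619.9, 1033 and 942 (6.41-fold, SE 0.24, adjusted p = 1.42e-05). No array of the tissues overlapped for either gene. Angptl4, an inhibitor of lipoprotein lipase, was 3.51-fold higher in WAT, Retn 2.47-fold and Rarres2, the precursor of chemerin, 2.67-fold. Nampt, an enzyme of NAD synthesis, was 1.57-fold higher in muscle, and the count of members higher in muscle went from 1 to 0 without WAT UAG 1, muscle UAG 1 or muscle UAG 2 and to 2 without WAT saline 2 or muscle saline 1.

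Lipid storage proteins and the enzymes that break the store down were mostly higher in WAT. Among 17 lipid droplet proteins, 10 were higher in WAT and 2 in muscle (median 0.87), and among 11 lipases and cofactors, 9 and 0 (median 1.32). Cidec, which fuses droplets into a large one, read 8281, 7868, 9454 and 10322 in WAT and 1229, 3143, 1843 and 2226 in muscle, and the lowest WAT array lay well above the highest muscle array (4.48-fold, adjusted p = 7.85e-05). Of the droplet coats, Plin4 was 2.54-fold higher in WAT and Plin2 1.82-fold. The muscle form of the coat family, Plin5, was 2.80-fold higher in muscle, and Fitm1, a droplet-forming protein of the endoplasmic reticulum of muscle, read 1915, 1381, 2041 and 1631 in muscle and 60.9, 13.8, 10.1 and 14.2 in WAT, at least 48.1-fold higher in muscle (adjusted p = 1.50e-06).

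The lipases of stored fat moved together. Pnpla2, which removes the first fatty acid of a triglyceride, was higher in WAT by 1.58 on the log2 scale, its activator Abhd5 2.59-fold, Lipe 3.56-fold and Mgll, which releases the last fatty acid, 4.13-fold (adjusted p from 2.18e-05 for Mgll to 0.000322 for Abhd5). Lpl, the lipase on capillaries that frees fatty acids from lipoproteins, read 13785, 12174, 12238 and 14478 in WAT and 10539, 13252, 11338 and 12366 in muscle and was not called (difference 0.15, SE 0.16, adjusted p = 0.555). Of 13 receptors that control lipolysis, 8 were higher in WAT and 1 in muscle (median 1.39), among them the clearance receptor of natriuretic peptides Npr3 (6.12-fold), the thyrotropin receptor Tshr (5.98-fold) and the prostaglandin receptor Ptger3 (3.68-fold). The insulin receptor Insr, whose signal stops lipolysis, was 1.40-fold higher in muscle (adjusted p = 0.00893).

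Triglyceride synthesis had 13 of 18 members higher in WAT and 1 in muscle (median 1.08), and fatty acid synthesis 11 of 19 and 0, or 11 and 1 without WAT saline 1 (median 0.79). Gpat3, which starts glycerolipid assembly, was 3.90-fold higher in WAT, Dgat1 and Dgat2, which finish it, 2.91-fold and 2.25-fold, and the glycerol channel Aqp7 3.32-fold. Srebf1, a transcription factor of lipid synthesis, read 4907, 1783, 1936 and 2491 in WAT and 814, 879, 662 and 770.3 in muscle (3.28-fold, adjusted p = 0.000454). Acaca, which makes malonyl-CoA, was 2.14-fold higher in WAT and Fasn, which builds palmitate from it, 1.55-fold, a call of Fasn that was lost without WAT UAG 1, WAT UAG 2 or muscle UAG 1, while Acly, which supplies the acetyl-CoA, read 11005, 4414, 2778 and 4461 and 5604, 2933, 1568 and 2772 and was not called (adjusted p = 0.0974). Acaca, Fasn, Acly and Srebf1 were highest in WAT on saline 1, also the highest array for 8 of the 9 brown adipocyte markers, whose part in these values was not tested. In the pentose phosphate pathway and NADPH list, 7 of 9 members were higher in WAT and 0 in muscle (median 0.93), among them H6pd (3.98-fold), Pgd (2.86-fold) and Idh1 (2.08-fold).

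The transcription factors of fat cell formation divided. Of 22, 11 were higher in WAT and 4 in muscle (median 0.50). Cebpa, which with Pparg sustains the adipocyte state, read 4241, 3901, 4689.6 and 4837 in WAT and 669, 1749, 882 and 996 in muscle (4.37-fold, adjusted p = 9.27e-05), and Pparg was 3.35-fold higher (adjusted p = 0.000375). Klf4 (2.79-fold), Zfp467 (2.26-fold) and Ebf2 (1.84-fold) went the same way. Stat5b (3.61-fold), Cebpd (2.42-fold), Klf5 (2.22-fold) and Rxrb (1.77-fold) were higher in muscle.

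In muscle, the regulators that set and keep the fibre's identity were higher. Of 25 myogenic transcription factors and cofactors, 21 were higher in muscle and 2 in WAT (median -2.71, or -1.34 with the floor), and the count in WAT fell to 0 when WAT saline 2, WAT UAG 1 or any muscle array but saline 2 was left out and to 1 when WAT saline 1 or WAT UAG 2 was. Myf6, the myogenic regulator of adult fibres, read 1281, 935, 1557 and 1471 in muscle and 18.8, 14.8, 9.40 and 4.87 in WAT, at least 42.9-fold higher in muscle (difference -6.92, SE 0.34, adjusted p = 2.11e-07). The other 3 members of that family were also called. Myf5 read 20.7, 23.3, 52.8 and 33.7 in muscle and at most 7.90 in WAT, too near 30 for a fold. Myod1 read 204, 126, 146 and 168 and 16.4 to 25.3 (at least 5.29-fold). Myog read 66.2, 53.1, 65.8 and 53.5 and 6.06 to 17.6 (at least 1.98-fold). Tbx15, a T-box factor of glycolytic fibres, was at least 27.99-fold higher in muscle, and Pax7, the factor of satellite cells, read 24.1 to 37.99 in muscle and 3.35 to 6.74 in WAT, too near 30 for a fold. Of the Mef2 factors, which act with the myogenic family, Mef2c was 15.6-fold higher in muscle, Mef2a 1.86-fold and Mef2d 1.58-fold.

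Of the 29 programme lists, those of the sarcomere had the largest medians. All 20 thick filament genes were higher in muscle (median -7.91, or -5.69 with the floor), as were all 18 Z-disc genes (median -6.87, or -5.79 with the floor) and 15 of 18 thin filament genes (median -6.21, or -4.59 with the floor). Myom2 read 9955, 7299, 8802 and 8995 in muscle and 24.6, 6.30, 8.02 and 17.6 in WAT, at least 290.3-fold higher in muscle (adjusted p = 3.98e-08). Tnnt3, fast troponin T, read 18498, 18028, 18498 and 18498 in muscle and 263, 36.6, 13.9 and 30.6 in WAT, and 3 of its muscle arrays shared the highest value of the scale, so its level there is a lower limit. Acta1, the actin of skeletal muscle, had the smallest difference of the fibre markers, 13638, 13212, 13029.6 and 13226 in muscle against 1738, 726, 1109 and 1406 in WAT (11.2-fold, SE 0.23, adjusted p = 1.67e-06), and the lowest WAT array read 726.

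Tmod4, a cap of the thin filament, was at least 155-fold higher in muscle, and of the Z-disc genes Myot was at least 259-fold, Ldb3 at least 207-fold and Tcap 200.2-fold higher. Tpm3, a tropomyosin used by many cells, read 1293, 1880.3, 2146 and 1599.5 in WAT and 397, 734, 609 and 682 in muscle and was 2.88-fold higher in WAT, but another of its probe sets was called in the opposite direction, as happened for 134 genes. The cardiac troponin Tnnt2 read 38.7, 39.3, 52.5 and 51.3 in muscle and 179.7, 129, 14.01 and 18.99 in WAT, where both saline arrays lay above all muscle arrays and both UAG arrays below, and was not called.

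The release and return of calcium followed the sarcomere. Of 27 genes of excitation-contraction coupling, 23 were higher in muscle and 2 in WAT (median -5.07, or -4.44 with the floor). The release channel Ryr1 was 168-fold higher in muscle, its voltage sensor Cacna1s at least 58.9-fold, the junction protein Stac3 at least 57.7-fold, the calcium store Casq1 at least 187-fold and the pump Atp2a1 at least 204-fold. Pvalb, a calcium buffer of fast fibres, read 13591, 13579, 12713 and 13609 in muscle and 277, 20.7, 21.7 and 24.3 in WAT (at least 256-fold, SE 0.64, adjusted p = 5.00e-06), highest in WAT on saline 1. Fkbp1a, which binds the release channel and is made by most cells, was 1.85-fold higher in WAT.

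At the surface of the fibre the differences were smaller. Of 13 genes of the neuromuscular junction, 7 were higher in muscle and 2 in WAT (median -1.86, or -1.18 with the floor). Chrna1, a subunit of the acetylcholine receptor, read 179.6, 163, 183 and 187 in muscle and 5.86, 17.1, 17.9 and 24.5 in WAT (at least 5.92-fold, adjusted p = 2.24e-05), Rapsn, which clusters the receptor, was at least 5.07-fold higher and the kinase that drives this clustering, Musk, at least 3.63-fold. Of 17 genes of the dystrophin complex and sarcolemma, 9 were higher in muscle and 3 in WAT (median -0.92), with at least 54.3-fold for Ank1, at least 34.04-fold for the protease Capn3 and 3.77-fold for dystrophin, Dmd. Genes of muscle mass and secreted muscle proteins were higher in muscle in 13 of 15 cases and in WAT in 0 (median -3.55, or -3.13 with the floor), including the ubiquitin ligases of atrophy, Trim63 (at least 123-fold) and Fbxo32 (11.5-fold), and Fndc5, the precursor of irisin (at least 8.09-fold).

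The muscle arrays differed among themselves in 6 genes of slow fibres. On muscle saline 1 the slow myosin Myh7 read 76.8 against 808 to 993 on the other 3, 11.3-fold lower. The slow troponins behaved likewise, with 6.87-fold for Tnnc1, 6.65-fold for Tnni1 and 6.52-fold for Tnnt1, and the slow light chains with 8.99-fold for Myl3 and 2.86-fold for Myl2. For 8 fast fibre genes the same ratio was 0.935 to 1.47, but Tnnt3 shared the ceiling of the scale on 3 arrays, saline 1 among them, and Tnni2, Mylpf and Actn3 read near it, which limits what this ratio can show. These 6 slow genes were chosen after their values were seen, so no test was made, and all 6 were called higher in muscle than in WAT.

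**Figure D4:**
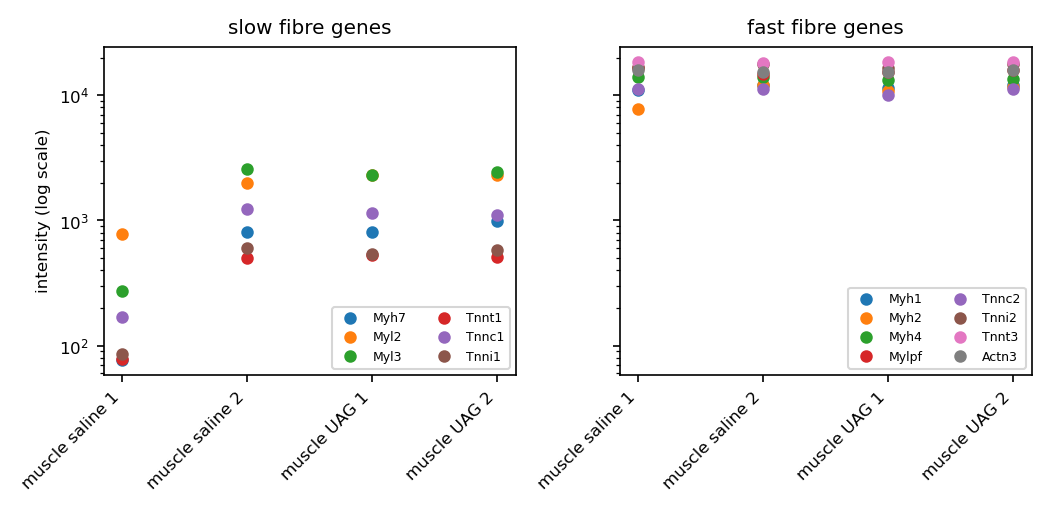
Intensity on a log scale (vertical axis) of 6 slow fibre genes (left) and 8 fast fibre genes (right) on the 4 muscle arrays, 1 point per array and gene. The slow genes lie lowest on saline 1 and close together on the other 3 arrays, while the fast genes stay between 7815 and 18498 on all 4.

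Promoters are shown for 4 of these muscle genes, a receptor subunit, an actin, a Z-disc protein and glycogen phosphorylase, because their windows hold the letters that muscle transcription factors are known to bind. Each is the 250 bases before a RefSeq transcription start, in GRCm38.p6, 5′ to 3′ on the strand of the gene. Capitals mark CAGCTG, an E-box of the kind bound by myogenic factors, and in Acta1 the CArG box of SRF. In Myoz2 they also mark CTANNNNTAG, a looser form of the MEF2 site in which N is any base. The windows are chr2:73580339-73580588 on the minus strand for Chrna1, chr8:123894776-123895025 on the minus strand for Acta1, chr3:123034988-123035237 on the minus strand for Myoz2 and chr19:6384158-6384407 on the plus strand for Pygm.
Chrna1: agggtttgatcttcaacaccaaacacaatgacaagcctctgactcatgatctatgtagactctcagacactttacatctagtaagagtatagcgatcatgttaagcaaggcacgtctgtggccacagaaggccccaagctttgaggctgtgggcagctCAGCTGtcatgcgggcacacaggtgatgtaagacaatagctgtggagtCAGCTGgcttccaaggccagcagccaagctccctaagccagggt
Acta1: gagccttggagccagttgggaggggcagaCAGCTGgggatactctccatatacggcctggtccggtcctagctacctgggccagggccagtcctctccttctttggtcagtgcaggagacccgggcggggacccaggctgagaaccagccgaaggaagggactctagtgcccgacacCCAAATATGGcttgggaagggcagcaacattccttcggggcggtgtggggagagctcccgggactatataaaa
Myoz2: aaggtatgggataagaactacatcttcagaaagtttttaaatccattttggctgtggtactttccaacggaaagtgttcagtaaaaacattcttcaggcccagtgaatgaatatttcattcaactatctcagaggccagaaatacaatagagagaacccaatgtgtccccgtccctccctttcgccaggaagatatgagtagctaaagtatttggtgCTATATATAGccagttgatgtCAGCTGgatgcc
Pygm: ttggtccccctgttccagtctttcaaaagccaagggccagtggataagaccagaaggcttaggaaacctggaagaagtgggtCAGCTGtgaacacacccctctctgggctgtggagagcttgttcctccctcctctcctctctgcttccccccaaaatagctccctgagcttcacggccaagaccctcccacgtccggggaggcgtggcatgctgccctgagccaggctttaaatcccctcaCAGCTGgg

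Myoz2, a Z-disc protein of slow fibres, read 1057, 1417, 2271 and 1721 in muscle and 31.7, 12.4, 19.3 and 14.3 in WAT (at least 51.2-fold), and Pygm 9757, 8826, 8459.7 and 9096 and 142, 79.2, 49.2 and 39.8 (132-fold). Read on both strands, CAGCTG was in 13% of the 32851 RefSeq windows of this length, in 23% of the 335 windows of genes called at least 8-fold higher in muscle (256 of 334 genes matched), and in 6.06% of the 33 windows of such genes of WAT (27 of 36 matched). Among the sarcomere and excitation-contraction genes called higher in muscle, 36.5% of 63 windows held it. For CTANNNNTAG these shares were 3.2, 7.16, 3.03 and 9.52%, and since N is any base they are not shares of MEF2 sites. The shares were 1.47, 3.58, 0 and 11.1% for the CArG box. For TTGCNNAA, a motif of C/EBP factors, they were 9.56, 10.4, 27.3 and 9.52%. The letters of a direct repeat bound by PPAR factors, AGGNCANAGGNCA, were in 0.338% of all windows and in 0 of the 3 sets. A match is a description of the window and shows no binding.

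For fuel use, glycolysis had 14 of 23 members higher in muscle and 6 in WAT (median -1.02). Glycogen metabolism had 11 of 21 and 3 (median -0.58, or -0.34 with the floor), and high-energy phosphate transfer 8 of 15 and 5 (median -0.64). Phosphoglycerate mutase Pgam2 read 7038, 5454, 7055 and 6129 in muscle and 50.3, 12.2, 9.31 and 8.62 in WAT, at least 187-fold higher in muscle (adjusted p = 1.34e-07). Enolase Eno3 was 95.97-fold and phosphofructokinase Pfkm 30.04-fold higher in muscle, while Pfkl (2.34-fold), Pfkp (2.15-fold) and hexokinase Hk1 (2.21-fold) were higher in WAT. Pgk1 (4.31-fold), Tpi1 (3.92-fold) and Aldoa (3.32-fold) were higher in muscle.

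Of glycogen breakdown, Pygm was higher in muscle, as were the phosphorylase kinase subunits Phka1 (33.01-fold, adjusted p = 6.00e-09) and Phkg1 (22.6-fold). Pygb, the brain form of phosphorylase, was 4.68-fold higher in WAT. Ampd1, which removes AMP in working muscle, read 6957, 5028, 6281 and 5401 in muscle and 31.5, 2.94, 4.82 and 15.7 in WAT (at least 193-fold, adjusted p = 1.34e-06), and adenylate kinase Ak1 was 17.7-fold higher in muscle. Ckb, the creatine kinase of brain and smooth muscle, read 541, 2511, 614 and 615 in WAT and 139, 214, 192 and 176 in muscle (4.76-fold higher in WAT, adjusted p = 0.00140), highest on the WAT array that was highest for 9 of 10 smooth muscle markers. With the high-energy phosphate transfer list, 5 members were higher in WAT with all arrays and 3 without muscle saline 1.

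Mitochondrial genes were higher in muscle by modest factors. The respiratory chain and ATP synthase had 33 of 47 members higher in muscle and 3 in WAT (median -0.71), but 18 and 3 after centring on ribosomal protein and proteasome genes (median -0.34). The citric acid cycle had 16 of 26 and 2 (median -0.63), and 8 and 3 after that centring (median -0.26). Cox6a2, the muscle subunit of cytochrome oxidase, read 10041, 8837, 9832 and 10078 in muscle and 91.6, 34.2, 46.1 and 48.7 in WAT (188-fold, adjusted p = 1.24e-08), and Atp5g1, a subunit of the proton ring, was 9.03-fold higher in muscle. The other subunits called were within a factor of 3 except Cox7a1 (16.5-fold), Cox8b (6.08-fold) and the ADP/ATP carrier Slc25a4 (5.10-fold). Cox7a1 and Cox8b are also brown fat markers, and on WAT saline 1 they read 1083 and 5296, above the other WAT arrays (94.7 to 198 and 789 to 1187).

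At the entry of pyruvate, Pdk4, the kinase that closes pyruvate dehydrogenase, read 1994, 4622, 5249 and 3925 in muscle and 1216, 627, 710.1 and 657 in WAT (4.81-fold higher in muscle, adjusted p = 0.000223), and Pdp1, the phosphatase that opens it, was 5.33-fold higher in muscle. Pcx, pyruvate carboxylase, was 3.26-fold higher in WAT. Of 14 regulators of mitochondrial biogenesis, 12 were higher in muscle and 0 in WAT (median -0.87), and 7 and 1 after the centring on ribosomal protein and proteasome genes (median -0.50). They included the coactivator Ppargc1a (3.99-fold), its partner Esrrg (at least 4.90-fold) and Perm1 (at least 20.5-fold).

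Fatty acid oxidation did not separate the tissues as a list. Of its 28 members, 6 were higher in muscle and 4 in WAT (median 0.04, beside 0.08 over all genes). The direction of the list turns with the scale, to 4 in muscle and 9 in WAT after centring on ribosomal protein and proteasome genes, and rests on 1 array, since without WAT saline 1 there were 11 in muscle and 3 in WAT. Cpt1a, the liver form of the carnitine transferase, was 2.77-fold higher in WAT and the transporters Slc27a1 3.12-fold and Cd36 1.93-fold. Fabp3, the fatty acid binding protein of heart and muscle, read 4576, 4568, 5891 and 4610.4 in muscle and 845, 129, 322 and 107 in WAT (19.7-fold higher in muscle, adjusted p = 0.000116). The subunits of the mitochondrial trifunctional enzyme, Hadha (1327 to 2488 in WAT, 2065 to 2249.6 in muscle) and Hadhb (3155 to 7286 and 5372 to 6344), overlapped and were not called.

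Insulin signalling had 10 of 22 members higher in muscle and 5 in WAT (median -0.37), but 4 and 10 after the centring (median 0.01), and 6 in muscle when either muscle saline 1 or WAT UAG 1 was left out, so no direction is given for the list. Slc2a4, the glucose transporter that insulin moves to the surface, read 2705, 878, 1069 and 1382 in WAT and 2651, 2331, 2547 and 2405 in muscle (1.81-fold higher in muscle, adjusted p = 0.0406), WAT saline 1 lay above all 4 muscle arrays, and the call was lost when any array but WAT saline 1 was left out. Akt1 was 2.15-fold and Foxo1 1.77-fold higher in WAT, and the Rab regulator Tbc1d1 2.80-fold and the adaptor Grb14 3.41-fold higher in muscle. Akt2 (757 to 1397 in WAT, 811 to 915 in muscle) and Irs1 (911 to 1568 and 1010.1 to 1967) were not called.

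Pairs of genes for the same kind of protein were listed with 1 form taken as that of muscle and the other as a broader or fat form. These labels are the list's own and are not exclusive to a tissue. Among the forms listed as broader, Acta2 is also a smooth muscle marker here. Actn1 and Ckb were highest on WAT saline 2, the highest WAT array for 9 of 10 smooth muscle markers, whose part in these pairs was not tested. Of 30 pairs measured, 19 were called in opposite directions, and in those 19 the difference of the muscle form was the larger, also with values of the dimmer tissue under 30 set to 30. The muscle form was higher in muscle in 28 pairs and the broader form higher in WAT in 21, against the 15.8% and 22.2% of all genes. For creatine kinase the difference was with that floor 2.25 for Ckb and -7.62 for Ckm, for AMP deaminase 0.94 for Ampd3 and -7.59 for Ampd1, and for α-actinin 1.70 for Actn1 and -8.26 for Actn3. Caveolin, a coat protein of surface pits, gave 1.11 for Cav1 and -3.51 for Cav3, and the membrane linkers 1.14 for utrophin, Utrn, and -1.92 for Dmd. The call of Ampd3 was lost without muscle saline 1.

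Other pairs did not part that way. Both PGC-1 coactivators were higher in muscle (-0.57 for Ppargc1b and -1.998 for Ppargc1a), as were both glucose transporters (-0.93 for Slc2a1 and -0.86 for Slc2a4), and both malic enzymes were higher in WAT (0.79 for Me1 and 1.35 for Me2). The call of Ppargc1b was lost when any array but WAT saline 1 or muscle saline 2 was left out, that of Slc2a4 when any but WAT saline 1 was, and that of Me1 without WAT UAG 2, muscle UAG 1 or either muscle saline array. Acacb, the acetyl-CoA carboxylase at the mitochondrion, was not called (0.12, SE 0.29). In 7 pairs the form listed as broader was not called and the form listed for muscle was higher in muscle, as with Fabp4 (0.17, SE 0.18) and Fabp3 (-4.30), Cavin4 (-7.16), the lactate exporter Slc16a3 (-4.74), Fbp2 (-5.30), Rxrg (-1.72), Gys1 (-1.24) and Cox7a1 (-4.04). Fabp4 read close to the ceiling of the scale, which limits what its difference can show.

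**Figure D5:**
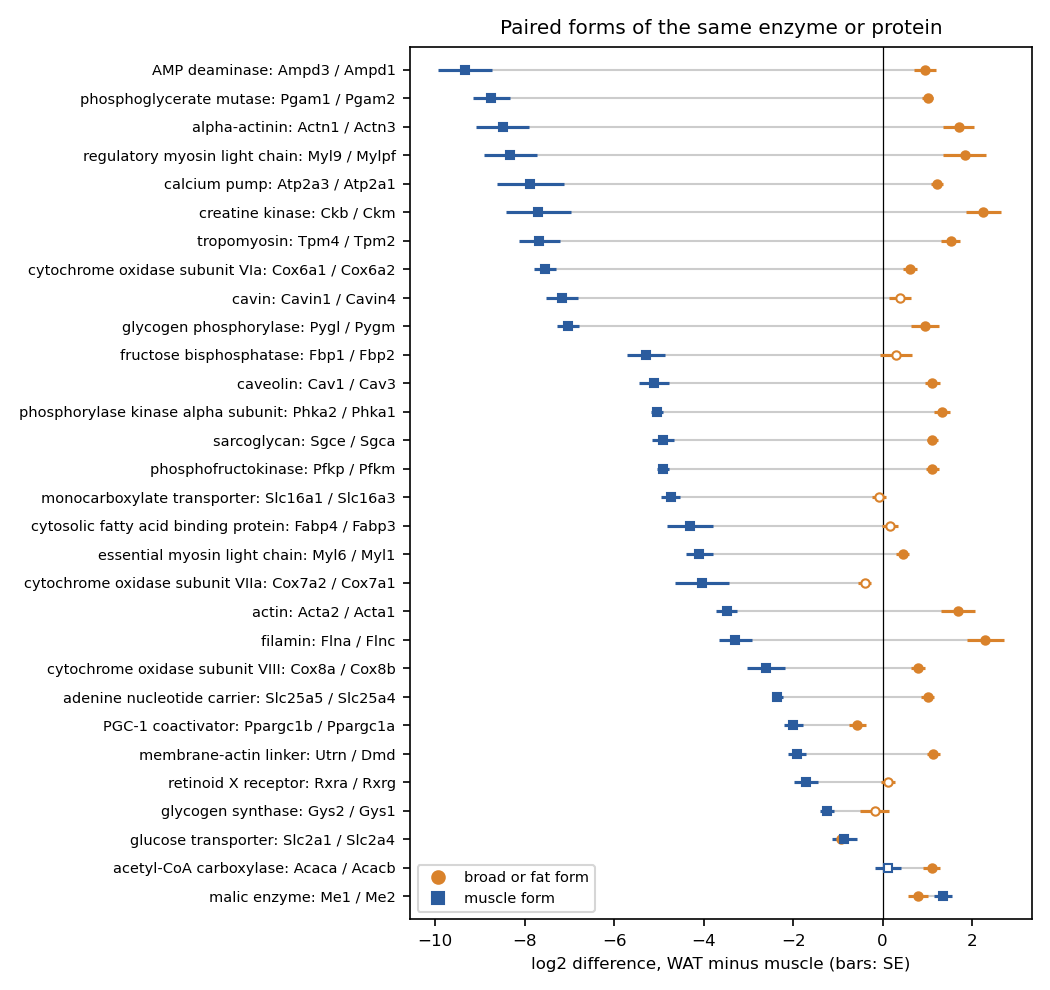
Log2 difference, WAT minus muscle (horizontal axis, bars are SE), for the form listed as broader or fat (orange circles) and the form listed for muscle (blue squares) of 30 kinds of protein, filled where called and open where not. In the 19 pairs called in opposite directions the blue square lies farther from 0 than the orange circle.

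The matrix and its cells were higher in WAT. Of 18 collagens of fibrils and basement membranes, 14 were higher in WAT and 1 in muscle (median 1.48), a muscle count that was 0 without WAT saline 1, WAT UAG 1 or any muscle array but saline 2, and of 25 other matrix proteins 23 and 1 (median 1.42). The basement membrane collagen Col15a1 read 424, 667, 607 and 607 in WAT and 126, 147, 111 and 117 in muscle (4.56-fold, adjusted p = 4.05e-06), the matrix protein Fbln1 was 5.02-fold and the proteoglycan Bgn 4.57-fold higher in WAT. Fmod, a proteoglycan of tendon, was 7.39-fold higher in muscle, and all 7 tendon markers were called higher there (median -5.03, or -2.69 with the floor), such as Thbs4 (at least 27.9-fold) and Tnmd (at least 10.4-fold). Col1a1, the main collagen of fibrils, read 754, 3728, 1299 and 1237 in WAT and 418, 401, 469.6 and 687 in muscle (3.02-fold, adjusted p = 0.0109), highest on WAT saline 2, where smooth muscle and reproductive tract markers were also highest, whose part in the collagen values was not tested. Without that array the collagen counts were also 14 and 1 and the median 1.08.

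All 9 macrophage markers were higher in WAT (median 1.51), with 2574, 2296, 2839 and 2974 in WAT and 733, 861, 1026 and 1167 in muscle for the growth factor receptor Csf1r. So were 9 of 11 endothelial markers (median 0.64) and 7 of 9 fibroblast markers (median 0.94). Of the lymphocyte list 2 of 9 were called, both of B cells, Cd79a and Ighm, the heavy chain of IgM, at 1268, 1042, 1489.5 and 2084 in WAT and 137, 131, 165 and 370.1 in muscle (7.82-fold, adjusted p = 4.54e-06), and 4 were called without muscle UAG 2. Of 7 nerve and Schwann cell genes, 2 were higher in muscle, Mbp (3.43-fold, with probe sets called both ways) and Ncmap (at least 1.74-fold), and 1 in WAT. Further, 5 of 10 smooth muscle markers were higher in WAT and 2 in muscle, 3 of 10 reproductive tract markers were higher in WAT and 0 in muscle (1 without muscle saline 1), and 3 of 9 brown adipocyte markers were higher in muscle, or 8 of 9 without WAT saline 1. With values under 30 set to 30, the medians of the smooth muscle, reproductive tract, brown adipocyte and lymphocyte lists were 1.23, 0.17, -0.76 and 0.21.

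Of the 10 genes of the mesothelium and epithelium list, 4 were called, all higher in WAT. They were Upk3b, Wt1, Msln and Lrrn4, the last at 272, 384, 533 and 283 in WAT and 33.1, 37.95, 28.1 and 43.8 in muscle. The other 6, the keratins with Epcam and Cdh1, were not called, and 3 genes of the list had the sign of muscle. The list was drawn up as 1 group, and a split of it by cell type was not tested. Epithelial Epcam read 27.2, 29.8, 37.3 and 5.50 in WAT and 7.96, 331, 61.5 and 124 in muscle, Cdh1 65.1, 32.6, 8.48 and 11.4 and 4.32, 192, 51.02 and 69.3, and Krt18 276, 118, 111 and 56.8 and 28.3, 1056, 177 and 252. Muscle saline 1 was the lowest and muscle saline 2 the highest muscle array for these 3 genes, and without muscle saline 1 the list gave 4 genes higher in WAT and 3 in muscle.

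Genes that mark position along the body differed as well. Of 23 tissue position factors, 12 were higher in WAT and 4 in muscle (median 1.02, or 0.56 with the floor). Tcf21 read 418, 562, 312 and 310.1 in WAT and 6.81, 17.4, 25.5 and 5.37 in muscle (SE 0.45, adjusted p = 1.48e-05) and Gata6, a factor of visceral mesoderm, 579.8, 522, 362 and 371 and 30.4, 49.6, 41.99 and 48.7 (10.7-fold, adjusted p = 8.38e-07). Hoxa11, which is also a reproductive tract marker, was at least 3.13-fold higher in WAT. The limb factor Shox2 read 274, 254, 253 and 264 in muscle and 36.2, 24.5, 39.2 and 41.4 in WAT (at least 7.17-fold higher in muscle, adjusted p = 9.04e-07), and Hoxc10 (2.08-fold), Hoxc9 (1.68-fold) and the hindlimb factor Tbx4 (19.4 to 42.03 in muscle, 4.72 to 11.9 in WAT, too near 30 for a fold) were also called higher in muscle. Hoxc8, Hoxd9 and, by a call lost when any array but muscle saline 1 was left out, Hoxa9 were higher in WAT, so the Hox genes took no common direction.

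Of the machinery that all cells use, ribosomal proteins were near the median of all genes and the proteasome leaned to muscle. Of the list, 2 of 23 ribosomal protein genes were higher in WAT and 1 in muscle (median 0.18), or 15 and 0 after centring on ribosomal protein and proteasome genes. With any array but muscle saline 2 left out the ribosomal count in WAT was between 0 and 4. Of 29 proteasome subunits, 21 were higher in muscle and 1 in WAT (median -0.55), or 10 and 5 after that centring, and 22 and 3 without muscle saline 2. Both lists set that centring, so their counts after it are not a separate check of the scale. Psmc3, an ATPase of the cap, was 2.16-fold higher in muscle (adjusted p = 3.25e-05). The member higher in WAT was Psmb10, a catalytic subunit of the immunoproteasome (1.71-fold, adjusted p = 0.00502), and its partners Psmb8 and Psmb9 were not called (0.38, SE 0.23, and 0.60, SE 0.21).

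The comparison was also made within each treatment, to see whether the tissue difference held in saline and in UAG mice. With 2 arrays per group, 7185 probe sets (16.0%) were called between WAT saline and muscle saline, 3773 higher in WAT, and 8426 (18.7%) between WAT UAG and muscle UAG, 4484 higher in WAT. The difference between these was tested itself, as the interaction of tissue and treatment, and 1 probe set (0.00222%) was called by limma, with 1726 at an unadjusted p under 0.05. It was a probe set of Tpm2, a tropomyosin of muscle, that read 101.2, 88.6, 12.7 and 17.2 in WAT and 7309, 6876, 8504 and 8030.2 in muscle. Its tissue difference was -6.23 in saline mice and -9.13 in UAG mice, an interaction of -2.90 (SE 0.26, adjusted p = 0.0402). Both WAT UAG arrays lay under 30, so the sizes of the UAG difference and of the interaction rest on values below that threshold.

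The high WAT values were those of saline 1, the highest WAT array for all 10 muscle fibre markers, and saline 2, the highest for 9 of 10 smooth muscle markers, whose part in the difference was not tested. The other 3 probe sets of Tpm2 did not pass (adjusted p = 0.9999 each), and no probe set was called without the intensity trend, with all 12 arrays in the fit, after the centring on ribosomal protein and proteasome genes, with either filter on dim probe sets, with the replicate block, or when any of the 4 UAG or 2 muscle saline arrays was left out. There were 18 calls without either WAT saline array and 36 with the floor. Next in order and not called were Mmrn1, a protein of lymphatic endothelium, at 88.4, 174, 13.6 and 15.6 in WAT and 70.1, 69.8, 121 and 121 in muscle (interaction -3.88, adjusted p = 0.224), Tnnt2 (-3.64, adjusted p = 0.224) and the imprinted gene Peg3 (2.13, adjusted p = 0.333). With 2 arrays per group, an interaction that misses the threshold does not show that the tissue difference was the same under both injections.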

How the data were processed

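RNA of 12 tissue samples was hybridised to mouse Affymetrix arrays, and the 8 arrays of WAT and muscle were analysed, with liver as a reference level. The deposited values are intensities on the log2 scale made by the authors with MAS5 per the submitters' processing notes (version not given in the sources used here). The study's methods name quantile normalization and an intensity threshold of 30, and the base of the logarithm was taken to be 2. Of 45037 probe sets (64 controls were left out), 34945 name 1 gene by the platform annotation, 932 several and 9160 none, and 18145 of 18193 gene symbols are in the RefSeq table used. No column of the table was left unassigned.

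The log2 values were fitted with limma 3.58.1 in R 4.3.3 (lmFit, then eBayes with an intensity trend), with tissue and treatment as terms, and for the contrasts within a treatment and the interaction with a mean for each of the 4 groups. P-values were two-sided and adjusted by Benjamini-Hochberg over all probe sets at 0.05. No filter was applied, and the number of arrays limits the precision. A gene was read by its brightest probe set that names it alone, and folds are ratios of geometric means, with arrays of the dimmer tissue under 30 set to 30.

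Genes named were Ghsr, the cell type markers, the 15 largest differences in each direction whose arrays do not overlap, up to 4 members of each list in each direction and up to 4 that did not pass, both forms of each pair, and genes with the lowest interaction p. The members and all lists were chosen with earlier results of these data known. Further list members, such as Ryr1, Myod1, Mef2c, Dgat1, Fasn and Pgk1, and the slow fibre genes were named for their known role after their values were seen. Of 746 listed genes, 685 were measured. Promoters were taken from RefSeq, GRCm38.p6.

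The alternatives were a floor of 30, filters on dim probe sets (a mean of at least 30, or at least 100 on 4 or more arrays), scaling to the 75th percentile, quantile normalization, centring on ribosomal protein and proteasome genes, no intensity trend, no treatment term, all 12 arrays, a replicate block, a treatment alone, no WAT saline arrays, the mean of a gene's probe sets, and each array left out. Leaving out both muscle saline arrays, or replicate 1 of both saline groups, was added after seeing the data. The fit was tested on simulated data with known changes.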

Additional observations from a re-analysis of the deposited data

Results flagged for a closer look

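For each of the 202 genes named, the 4 arrays of WAT and the 4 of muscle were searched for an array far from the rest (its gap to the nearest other array being most of the range), and 35 of 404 sets of 4 had one. Sets with all 4 arrays under 30 are counted in the 404 but were not searched, so the share among searched sets is higher. Chance alone gives about 1 in 20, and genes of a tissue are not independent, so neighbouring genes repeat the same array. All were intensities of a lone array, and what made the array differ was not tested.

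On WAT saline 1, muscle fibre genes stood high, with 248 for Actn3 (other arrays 22.5 to 25.8), 613 for Ckm (other arrays 24.3 to 40.7), 246 for Eno3 (other arrays 133 to 144), 47.9 for Myh2 (other arrays 5.23 to 6.47), 108 for Myl2 (other arrays 18.9 to 24.03), 267 for Mylpf (other arrays 22.4 to 33.4), 51.1 for Neb (other arrays 8.46 to 11.3), 277 for Pvalb (other arrays 20.7 to 24.3) and 154 for Tcap (other arrays 30.1 to 36.2). Metabolic genes were also high there, with 2488 for Hadha (other arrays 1327 to 1371), 7286 for Hadhb (other arrays 3155 to 3504), 6900.5 for Pcx (other arrays 4428 to 4528) and 5860.3 for Plin2 (other arrays 2469 to 2672), and malic enzyme Me2 was low at 137 (191 to 202). On WAT saline 2, the array highest for 9 of 10 smooth muscle markers, values were 1374 for Actn1 (other arrays 405 to 451), 2511 for Ckb (other arrays 541 to 615), 527 for Hk1 (other arrays 327 to 343), 219 for Hoxa11 (other arrays 67.5 to 75.003), 5472 for Pcp4 (other arrays 208 to 278) and 145 for Tbc1d1 (other arrays 77.4 to 82.2), while adipocyte genes were low at 1244 for Pparg (other arrays 1939.8 to 2074) and 5363 for Rbp4 (other arrays 6763 to 7022). On muscle saline 1, slow fibre genes were low at 76.8 for Myh7 (other arrays 808 to 993), 775 for Myl2 (other arrays 2009 to 2331), 272 for Myl3 (other arrays 2325 to 2592), 169 for Tnnc1 (other arrays 1105 to 1226), 86.4 for Tnni1 (other arrays 540.1 to 608) and 78.5 for Tnnt1 (other arrays 500.4 to 529).

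Single genes stood apart on other arrays. On muscle saline 2, Fmod was low at 541 (other arrays 1349 to 1604) and Tnnt3 read 18028 while the other muscle arrays were at the ceiling of 18498. On muscle UAG 1, values were 1155 for Acacb (other arrays 1338 to 1366), 5891 for Fabp3 (other arrays 4568 to 4610.4), 12713 for Pvalb (other arrays 13579 to 13609) and 324 for Slc2a1 (other arrays 266 to 269). On WAT UAG 2, Epcam read 5.50 (other arrays 27.2 to 37.3), near or under 30 on all of them.

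The tissue difference of a Tpm2 probe set differed between the treatments by an interaction of -2.90 in limma (adjusted p = 0.0402). WAT was lower in UAG than in saline on 2 of 2 arrays, both under 30, so the size of the interaction rests on values below that threshold. The other 3 Tpm2 probe sets did not pass.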

How the results depend on the processing

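Of 4621 differences recomputed for the 202 named genes, 4358 kept their direction and side of the threshold, 185 calls were lost (74 of them with the saline arrays only), 60 were gained and 18 turned. Some settings could not turn a difference. Without the trend or treatment term, with all 12 arrays or with the replicate block, the fitted difference is the same by design and only its test changes. Quantile normalization and 75th percentile scaling moved the median over all genes by just -0.00023 and -0.00136. The count of 4358 includes these settings. With the saline arrays only, 2845 probe sets and 188 list members were called, on 4 arrays in place of 8. With each array left out in turn, 10694 to 13529 probe sets were called, 572 to 685 by at least 8-fold, and 394 to 452 list members. In saline mice the count was 4071 with the floor of 30, 2773 without the intensity trend and 2994 to 8053 with an array left out, lowest without muscle saline 1. In UAG mice it was 4463 without the trend and 3600 to 9236 with an array left out, lowest without WAT UAG 2. The interaction gave 36 calls with the floor and 0 with the centring on ribosomal protein and proteasome genes, either filter, no trend, all 12 arrays or the replicate block, and 0 to 18 with an array left out, 18 when either WAT saline array was left out and 0 when any of the other 6 was. The causes were not tested. Replicate numbers did not pair the samples (correlation of deviations 0.136 in saline and 0.0270 in UAG, over 25587 probe sets), and the replicate block gave 13379 calls, 589 by at least 8-fold, 446 list members, 7353 in saline and 8492 in UAG. Leaving out both muscle saline arrays, chosen after seeing the data, gave 9272 calls, 694 by at least 8-fold and 385 list members, and leaving out replicate 1 of both saline groups 11726, 603 and 446.

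Among lists, the counts higher in WAT that fell with the saline arrays only included those of adipogenic transcription factors (11 to 1), smooth muscle (5 to 0), other matrix proteins (23 to 13), the adipocyte markers (5 to 0), endothelium (9 to 0), lipid droplet proteins (10 to 1), lipases (9 to 1), triglyceride synthesis (13 to 3) and adipocyte hormones and secreted proteins (11 to 3), and counts higher in muscle the respiratory chain (33 to 3), citric acid cycle (16 to 3) and proteasome (21 to 1). Without both muscle saline arrays the counts in WAT were 7 for fatty acid synthesis, 9 for collagens, 4 for fibroblast markers and 1 for smooth muscle markers. The floor also left 1 smooth muscle marker in WAT, the mean of all probe sets 4 fibroblast markers, and the filter of 100 on 4 arrays 4 genes of the neuromuscular junction in muscle, 7 tissue position factors in WAT and 3 tendon markers in muscle, since it removed the dim genes. Insulin signalling had 6 members higher in muscle with the floor and 5 without the trend, and fatty acid oxidation 11 with the UAG arrays only or without both WAT saline arrays.

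Calls lost with at least 1 array left out were those of Cyp2e1, Hoxa9, Slc2a4, Ppargc1b, Me1, Fasn, Nampt and Ampd3 (Ampd3 without muscle saline 1 alone). Calls gained were those of Hadha, Hadhb, Peg3 and Ucp1 without WAT saline 1, Acly, Akt2, Irs1, Mmrn1 and Ghsr without WAT saline 2, Irs1 without muscle UAG 2, Cdh1, Epcam and Krt18 without muscle saline 1, and Adipoq, Ghsr, Psmb8 and Psmb9 without muscle saline 2, with Ghsr under 30 on every array. Differences that turned were of genes not called. Acacb went from 0.12 to -0.17 with the UAG arrays only or without both saline arrays of either tissue, and ran from -0.26 (without WAT saline 1) to 0.38 (without WAT saline 2) with an array left out and was -0.24 without replicate 1 of both saline groups. Tnnt2 went from 0.15 to -1.67 in those settings without saline arrays (called there), ran from -0.31 to 0.60 with an array left out, below 0 whenever a saline array was left out (-0.12, -0.22 and -0.21 for the other 3), and was -0.54 without replicate 1 of both. Krt18 ran from -1.99 without replicate 1 of both to 0.22 without muscle saline 2, and with the saline arrays only it was 0.065, Cdh1 0.68, Mmrn1 0.83 and Peg3 -0.39. Intensity limits what can be read, since 4178 of 18193 genes lay under 30 on all 8 arrays.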
